A study of Mus musculus with 125 samples.

Results

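Secreted signals by which liver endothelium is known to instruct neighbouring cells, namely Wnt2, Wnt9b, Rspo3, Hgf, Bmp2 and Bmp6, were followed through the mouse endothelial chromatin and brain single-cell data. The 6 members are named genes, of 21887 protein-coding genes in the gene table. For chromatin, every peak that overlapped a gene or lay within 50 kb of it was counted in each library. For RNA, unique molecular identifiers (UMIs, which mark single captured transcripts) were counted in brain endothelial barcodes. A barcode had to hold at least 200 genes, at most 10% mitochondrial UMIs and at least 3 of the 6 endothelial genes Cdh5, Pecam1, Egfl7, Esam, Tie1 and Kdr.

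The sinusoids of the liver are lined by a thin, fenestrated endothelium that also acts as a source of growth signals, often called angiocrine signals. Wnt2 and Wnt9b are Wnt ligands, which stabilise beta-catenin in hepatocytes, and Rspo3 is an R-spondin, which binds Lgr receptors and makes cells more sensitive to Wnt; these 3 signals are known for keeping the metabolic zones of the liver lobule. Hgf is hepatocyte growth factor, the ligand of the receptor Met. Bmp2 and Bmp6 are bone morphogenetic proteins, which through Smad proteins drive hepatocytes to make hepcidin, the hormone that limits iron uptake.

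ATAC-seq (transposase-accessible chromatin sequencing, which cuts DNA where chromatin is open) was available from nuclei of mice in which tamoxifen had switched on GFP in vessels. There were 37 endothelial libraries, with 12 from adult mice of 2 months (2 each of brain, retina, heart, lung, liver and kidney), 14 labelled P6 (3 each of brain and retina, 2 of each other organ) and 11 from E12 embryos (4 trunk, 4 heart, 3 brain). Whole-tissue input nuclei gave 29 libraries, 10 adult, 16 P6 and 3 E12, among them 2 of liver at each postnatal age. All groups carried the same tamoxifen-induced GFP, whose driver is not named in the sources used here, and the protocol gives a collection age of 1 day more than the label P6. Liver was not sampled separately at E12, and it is not said that the libraries of a group came from separate mice, so p-values measure the spread between libraries, which may be technical. The 5 single-cell libraries were brain cells enriched with beads against CD31, a surface protein of endothelium, 1 library at each of 5 ages (E9.5, E12.5 and E16.5 embryos, P8 pups and adults), with cortex taken at P8 and adult. Bulk RNA-seq of liver endothelium was not used here, for want of a table pairing its transcripts with genes, and no liver single-cell library was analysed, so the RNA values describe these signals in an organ for which they are not named.

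Peak lists held 19464 to 144197 peaks from 10.1 to 59.1 M (mega) tags, and the 4 postnatal liver endothelial lists 37022, 47334, 66025 and 47685. Because longer lists hold more peaks at any gene, list length entered every test as a covariate. Libraries passed through 4 kinds of read processing, named in the file headers; after birth liver endothelium shared its kind with kidney endothelium, and the endothelium of the other organs had other kinds. Liver identity was described with 12 sinusoidal markers such as Stab2, Fcgr2b and Mrc1. All markers here were chosen with earlier results of these data known, so their counts are not an independent check. In adult liver endothelium 12 of 12 had more peaks than in the other organs, and at P6 11 of 12 (limma, adjusted p under 0.05). None of 10 general endothelial markers passed the test between liver and the other organs at either age. Of 10 hepatocyte markers 3 were higher in liver at adult and 2 at P6, Alb at both ages. Of 8 Kupffer-cell (liver macrophage) markers 1 was higher at adult and 2 at P6, Clec4f at both. Beside the counts against the other organs, 8.99% of all genes were called higher in adult liver and 8.14% at P6. Against liver input, 9 of the 10 hepatocyte markers were lower in adult liver endothelium and 4 at P6, and of the 10 general endothelial markers 8 and 6 were higher. Of the 12 sinusoidal markers 6 at adult and 3 at P6 were higher than in input, and of the 8 Kupffer-cell markers none was lower at either age. Beside these counts against input, 14.3% of all genes were higher and 15.7% lower at adult, and 8.13% and 13.0% at P6. Of 10 markers of stellate cells, the liver's pericytes, none was higher than in the other organs or in input at either age. Of 6 of cholangiocytes, the bile duct cells, 1 (Epcam) was higher at adult in both comparisons and none at P6. From lists made for the single-cell data, at adult 2 of 9 mural (vessel-wall) markers were higher and 2 lower than in the other organs. Against adult input 1 mural marker was higher and 2 lower. There 2 of 7 mesenchymal and 3 of 8 microglia markers were higher and none lower. At P6 none of these was higher than in input, and 1 mural and 1 mesenchymal marker were lower. Against the other organs 1 microglia marker was higher at adult and 2 at P6. Peaks of a bulk sample do not tell a more open locus from more nuclei in which it is open, and the part of other cells' nuclei in the values below was not tested.

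Adult liver endothelium had more accessible regions around 4 of the 6 genes than the endothelium of the other 5 organs. In peaks + 1, adjusted for list length, Wnt2 and Bmp2 were each about 4-fold higher and Hgf and Bmp6 higher by less. Wnt9b and Rspo3 did not pass the test. The count of 4 of 6 stands beside 8.99% of all 21173 genes tested that were called higher in adult liver. For the 6 members the median difference was 1.18 on the log2(peaks + 1) scale, and for all genes -0.06. Differences below are on that scale, adjusted for list length, from limma with Benjamini-Hochberg adjusted p over all genes.

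Wnt2, which signals to the hepatocytes around the central vein, had 8 and 9 peaks in the 2 adult liver endothelial libraries. Kidney endothelium had 2 and 5, lung 2 and 0, heart 1 and 1, brain 0 and 1, and retina 0 and 0. Both liver libraries lay above all 10 others, a separation seen for 8.16% of all genes. The difference was 2.08 (SE 0.34, limma adjusted p = 1.463e-05), a 4.23-fold change in peaks + 1. Against kidney alone, the only other organ with the same read processing, it was 0.76 with an adjusted p of 0.3426, so that call was lost. St7 and Asz1 also lie in or reach into the Wnt2 window, so its peaks cannot be assigned to Wnt2 alone. With peaks nearest to Wnt2 the difference was 1.535 and passed (adjusted p = 0.00235).

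At P6 the liver libraries had 11 and 9 Wnt2 peaks. The other 12 endothelial libraries had 1 to 7 with a median of 2.5, the highest being both lung libraries with 7 and 6. The groups again did not overlap, as held for 1.53% of all genes at P6. The difference was 1.77 (SE 0.33, limma adjusted p = 0.000213), where 8.14% of all genes were called higher; it fell to 1.18 against kidney alone (adjusted p = 0.09907) and to 1.55 without the covariate (adjusted p = 0.05882). Whole-tissue lung input at P6 had more Wnt2 peaks than liver endothelium in 2 of 3 libraries, with 13, 15 and 10.

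Wnt9b, the second endothelial Wnt ligand of the central vein, had 6 and 7 peaks in adult liver endothelium. Retina had 6 and 10, which overlapped the liver values, while the other 8 libraries had 2 or 3. The difference was 0.61 (SE 0.31, limma adjusted p = 0.1732). It passed in 1 of 26 alternative settings, with equal numbers of top peaks (0.81, adjusted p = 0.00126). At P6 liver had 9 and 5, inside the range of 3 to 14 in the other organs, where the 3 retina libraries were highest with 12, 12 and 14. Gosr2, Wnt3 and Nsf also lie in or reach into the Wnt9b window, so its peaks cannot be assigned to Wnt9b alone.

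Rspo3, the Wnt amplifier, had 3 peaks in each of the 4 liver endothelial libraries. In adults brain endothelium was higher with 5 and 5, kidney had 1 and 2, lung and retina 1 and 0 each, and heart 0 and 0. The adult difference of liver from the other organs was 0.70 (SE 0.27, limma adjusted p = 0.06286), and it passed in 4 of 26 alternative settings. With a window of 10 kb it was 0.88 (adjusted p = 0.01058), and against kidney alone 0.26 (adjusted p = 0.7887). At P6 the other libraries ranged from 1 to 9, with 11 of 12 at or above 3 peaks, and the difference was 0.09 (adjusted p = 0.908). The P6 brain libraries with 7 and 9 peaks were the highest.

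Hgf, the Met ligand, had 5 and 4 peaks in adult liver endothelium. One lung library reached 4, and the other 9 libraries had 0 or 1. The difference was 1.55 (SE 0.41, limma adjusted p = 0.0059). It was 1.26 without the first liver library (adjusted p = 0.177) and 1.58 against kidney alone (adjusted p = 0.05236), and both lost the call. It was lost too with a window of 10 kb (1.10, adjusted p = 0.05177) and in a fit of the compared groups alone (1.77, adjusted p = 0.1074), and held in the other 22 of 26 alternative settings. At P6 liver had 5 and 3, lung 6 and 7, and the other 10 libraries 0 to 3, a difference of 0.96 that did not pass (adjusted p = 0.105). It was 0.19 against kidney alone (adjusted p = 0.99) and passed with equal numbers of top peaks (0.83, adjusted p = 0.0299).

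Bmp2, which drives hepcidin in hepatocytes, passed the test at both ages. Adult liver endothelium had 7 and 9 peaks, and the other 10 libraries 0 to 2, with heart and retina at 0. The difference was 2.08 (SE 0.27, limma adjusted p = 3.086e-07), and it passed in all 26 alternative settings. In the 23 of these that kept the log2(peaks + 1) scale it ran from 1.45 to 2.385. At P6 liver had 8 and 6 peaks and the other 12 libraries 1 to 3, a difference of 1.65 (SE 0.27, adjusted p = 2.674e-05). It passed in 27 of 28 settings there, the exception being the fit without the covariate (1.43, adjusted p = 0.06045). No other protein-coding gene lies in the Bmp2 window.

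Bmp6, the iron-regulated BMP, had 13 and 14 peaks in adult liver endothelium against 3 to 10 elsewhere. Brain with 8 and 10 and heart with 9 and 8 came next, and retina was lowest with 3 and 3. The difference was 0.82 (SE 0.19, limma adjusted p = 0.00144), and 0.68 without the first liver library (adjusted p = 0.09811). Without the covariate the call was also lost (1.15, adjusted p = 0.1352). Txndc5 also lies in or reaches into the Bmp6 window. With peaks nearest to Bmp6 the adult difference was 1.265 and passed (adjusted p = 0.000272). At P6 the groups overlapped fully: liver had 13 and 10, heart 17 and 21, lung 16 and 14, and 1 brain library 21. The P6 difference of 0.37 did not pass (adjusted p = 0.1766), though against kidney alone, with 6 and 3 peaks, it was 1.11 and passed (adjusted p = 0.0029). It also passed with a window of 10 kb (0.91, adjusted p = 0.00719) and with peaks nearest to the gene (0.82, adjusted p = 0.0177). With equal numbers of top peaks the P6 difference turned to -0.28 and did not pass (adjusted p = 0.3224).

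**Figure D1:**
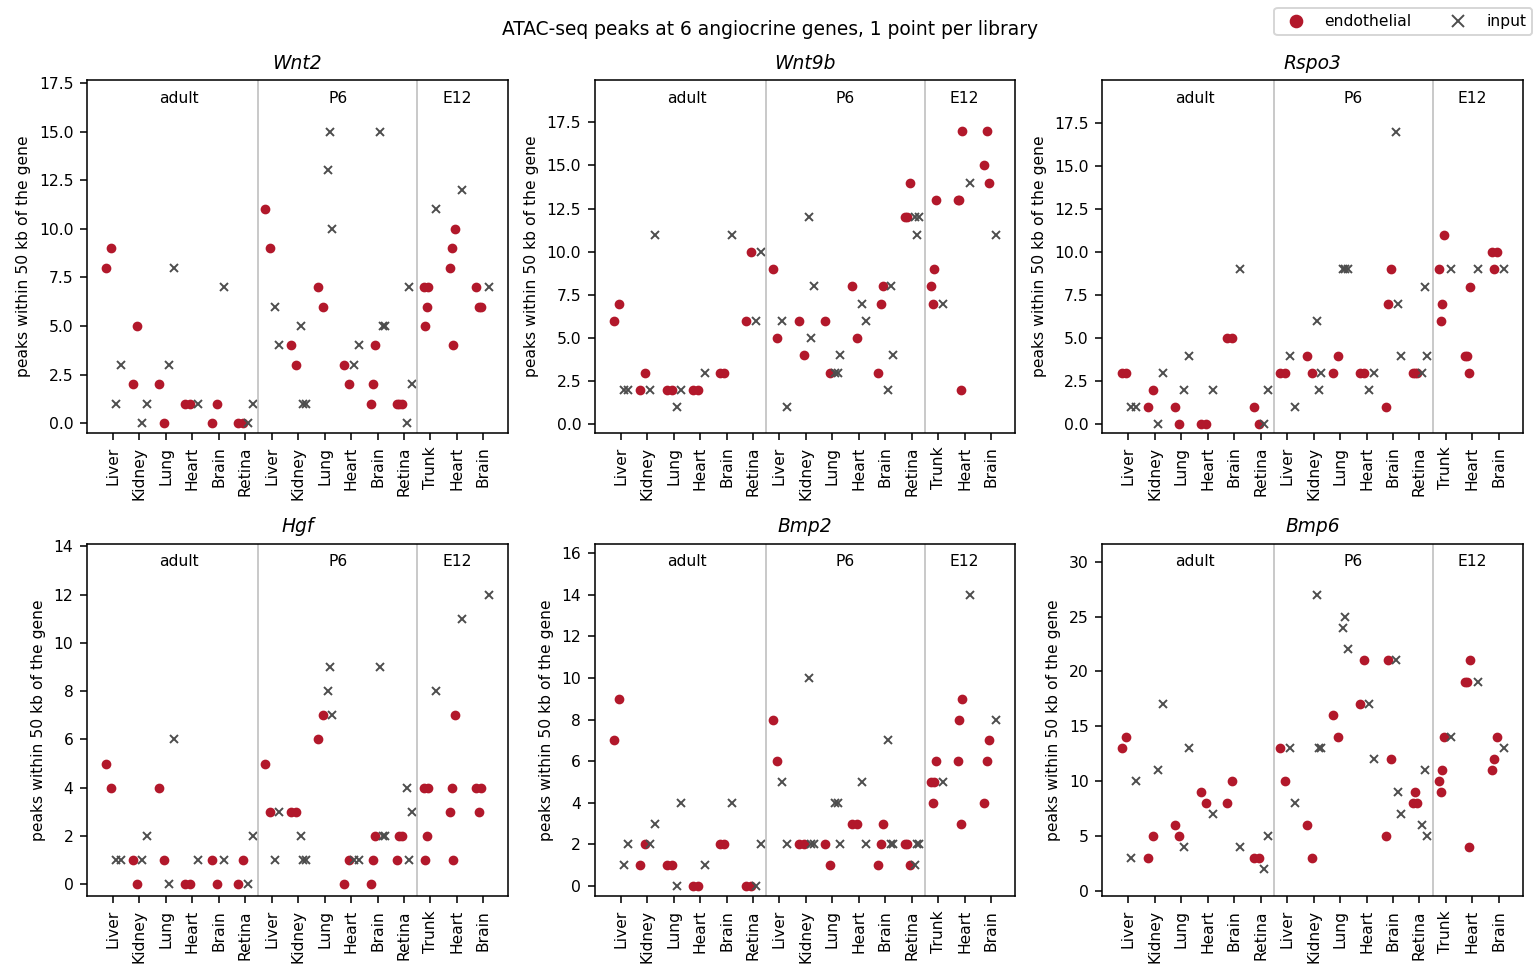
Number of ATAC-seq peaks overlapping each gene or within 50 kb (vertical axis), 1 point per library, by organ and age; filled circles are endothelial nuclei and crosses whole-tissue input nuclei. Adult liver endothelium stands above every other adult endothelial library for Wnt2 (8 and 9 peaks), Bmp2 (7 and 9) and Bmp6 (13 and 14), and overlaps them for Wnt9b, Rspo3 and Hgf.

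The liver's own input nuclei served as the background of the organ. Adult liver input had 1 and 3 peaks at Wnt2, 1 and 2 at Bmp2, 3 and 10 at Bmp6, 1 and 1 at Hgf, 1 and 1 at Rspo3 and 2 and 2 at Wnt9b. Both endothelial libraries lay above both inputs for all 6 genes, a separation seen for 29.0% of all genes. Wnt2 (1.39, SE 0.44, limma adjusted p = 0.0126), Bmp2 (1.499, SE 0.35, adjusted p = 0.000908) and Bmp6 (0.72, SE 0.24, adjusted p = 0.0202) passed the test, 3 of 6 members against 14.3% of all genes. Leaving out the first liver endothelial library or the first liver input library left 1 of the 3 calls, Bmp2, with Bmp6 at 0.32 without that input library (adjusted p = 0.4839), and a fit of the compared groups alone left none. In that fit Bmp2 was 1.506, Wnt2 1.235 and Bmp6 0.41. Wnt2 was 1.302 without the first endothelial library and 1.176 without the first input library. It passed in 11 of 17 alternative settings, and not with peaks nearest to the gene (1.05, adjusted p = 0.0974) or a −log10 q of at least 5 (1.385, adjusted p = 0.0506). Equal numbers of top peaks and covered length each called 5 members. With a window of 10 kb Rspo3 was called, at 1.685 (adjusted p = 9.82e-05) against 0.60 with 50 kb (adjusted p = 0.2044).

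At P6 the liver input libraries had 6 and 4 peaks at Wnt2, 5 and 2 at Bmp2, 13 and 8 at Bmp6, 1 and 3 at Hgf, 4 and 1 at Rspo3 and 6 and 1 at Wnt9b. The endothelial libraries, with 9 or more at Wnt2 and 6 or more at Bmp2, lay above both inputs for these 2 genes, as held for 9.67% of all genes. Of the members only Wnt9b passed, where 8.13% of all genes were called higher. Wnt3, which lies in or reaches into the Wnt9b window, was called higher too, so the call cannot be assigned to Wnt9b alone. The Wnt9b difference was 1.06 (SE 0.39, limma adjusted p = 0.0499), and it passed in 5 of 17 alternative settings. It did not pass with peaks nearest to the gene (0.93, adjusted p = 0.2435) or a window of 10 kb (0.93, adjusted p = 0.2227). Without the liver input library numbered 4 it was 0.53 (adjusted p = 0.5306). Bmp2 came next with 0.91 (adjusted p = 0.0541) and also passed in 5 of 17 alternative settings. With equal numbers of top peaks Bmp2 (2.16, adjusted p = 6.12e-08), Wnt2 (2.00, adjusted p = 0.000727) and Hgf (1.29, adjusted p = 0.00408) passed. Wnt9b did not pass there (0.585, adjusted p = 0.0608).

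Between adult and P6 liver endothelium no member was called: the differences ran from 0.18 for Wnt2 to 0.67 for Bmp6 (limma adjusted p of 0.177 to 0.954), and 0.246% of all genes were called higher in adult liver and 1.48% lower. For no member was the change with age of the difference between liver and the other organs called either (0.31 to 0.61, adjusted p of 0.599 to 0.945), where 0.118% of all genes were called higher and 0.439% lower. In simulated data with counting error only, the comparison of adult with P6 liver recovered 29.5% of genes raised 4-fold. The absence of a call therefore does not show that peaks were unchanged with age. A call at adult and none at P6 does not by itself show a change with age. With equal numbers of top peaks Bmp6 was called in both, with 1.11 between the ages (adjusted p = 0.00183) and 1.003 for the change in the difference from other organs (adjusted p = 0.0166).

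**Figure D2:**
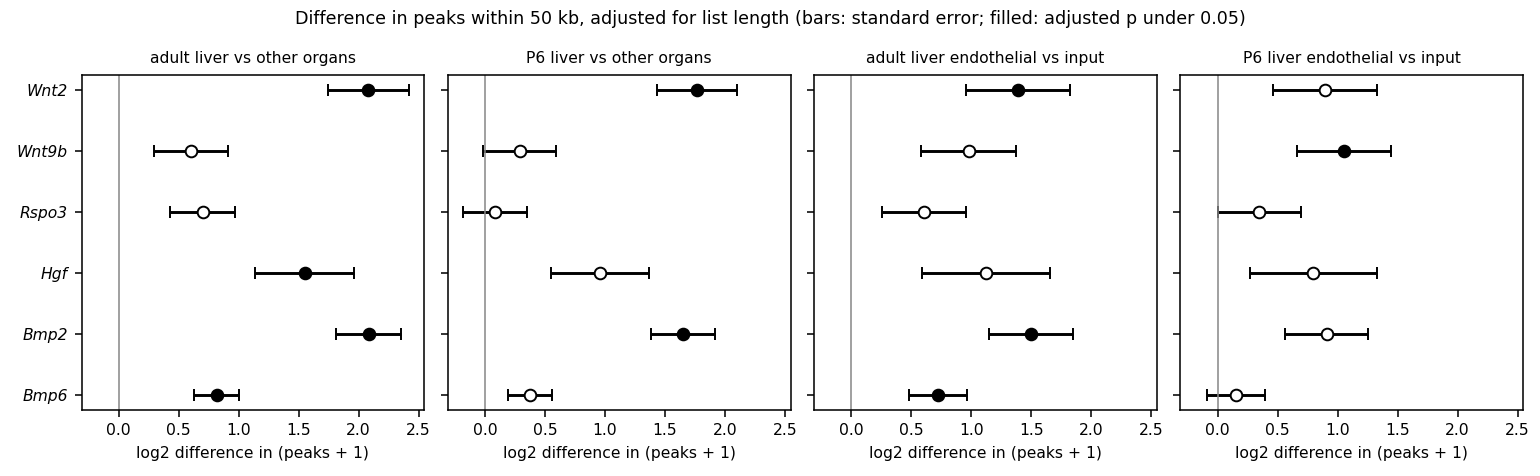
Difference in log2(peaks + 1) adjusted for list length (horizontal axis) for each gene in 4 comparisons, with bars for the standard error and filled points for a limma adjusted p under 0.05. Wnt2 and Bmp2 are furthest to the right in both comparisons of liver with the other organs, with 2.08 and 2.08 at adult and 1.77 and 1.65 at P6.

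In E12 embryos there were trunk libraries but no liver library, and the labels do not say which organs the trunk held. Every member had peaks in every E12 endothelial library. Wnt2 had 5 to 7 in the 4 trunk, 4 to 10 in the 4 heart and 6 or 7 in the 3 brain libraries. Rspo3 had 6 to 11 in trunk, 3 to 8 in heart and 9 or 10 in brain, and Bmp2 4 to 6, 3 to 9 and 4 to 7. No member was called between the trunk and brain and heart together (limma, from -0.24 for Wnt9b to 0.38 for Rspo3, adjusted p of 0.77 to 1.00), and 0.0236% of all genes were called higher and 0.184% lower; organ and read processing cannot be told apart at this age.

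The peaks were next merged into regions within each age, to find stretches open in both liver endothelial libraries and in no endothelial library of another organ. At adult this held for 18 of the 130 regions in the 6 windows, or 13.8%, against 2.64% of 200369 regions around all genes. Bmp6 had 6 such regions, Bmp2 5, Wnt9b 4, Wnt2 2, Hgf 1 and Rspo3 0. They were 250 to 947 bp long, 9 lay inside the member gene, and 2 also had a peak in liver input. At P6 the count was 7 of 196, or 3.57% against 0.876%, with 3 at Wnt2, 2 at Bmp2 and 1 each at Hgf and Bmp6.

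The Bmp2 regions were spread on both sides of the gene (chr2:133552159-133562896, mm10). The region with the highest fold enrichment over the local background, as the authors' peak caller MACS2 gave it, lay at chr2:133533014-133533960, 18199 bp below the gene, with 7.09 and 5.80 in the adult liver libraries. At E12 it had a peak in 11 of 11 endothelial libraries, and at P6 also in both kidney and 1 heart library, so it was liver-restricted at adult only. A region 28771 bp above the gene (chr2:133591667-133592487) had a fold of 5.87 and 5.69, a peak in 1 liver input library and in 8 of 11 E12 endothelial libraries. A region inside the gene (chr2:133554783-133555094) was weaker, with 2.57 and 2.42, and was again liver-restricted at P6. The remaining adult regions, at chr2:133561151-133561529 and chr2:133585974-133586765, had no E12 peak.

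All 6 liver-restricted Bmp6 regions lay inside the gene body (chr13:38345716-38500314). The strongest, chr13:38375293-38375826, lay 29577 bp after the annotated start, with a fold of 4.57 and 4.12, peaks in both P6 liver libraries and none at E12. The region at chr13:38351205-38351454, 5489 bp after the start, was liver-restricted at both ages and had peaks in 9 of 11 E12 libraries. Hgf had a single liver-restricted region, 32664 bp before its start at chr5:16520164-16520831, with 3.76 and 3.13 at adult. It was liver-restricted at P6 too, with 4.07 and 3.48, and had peaks in 6 of 11 E12 endothelial libraries but in no liver input library.

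Those of the Wnt ligands lay mostly within neighbouring genes. The adult Wnt2 regions were at chr6:17942066-17942886, inside St7, with a fold of 5.89 and 4.94 and a peak in 1 liver input library, and at chr6:18076711-18077262, inside Asz1, with 4.31 and 4.65. At P6 2 of the 3 Wnt2 regions lay inside Wnt2 itself, at chr6:18003033-18003539 with 5.15 and 3.36 and at chr6:18017493-18017999. For Wnt9b, 3 of the 4 adult regions lay inside Gosr2, and the fourth, chr11:103750264-103750957, lay 443 bp upstream of the Wnt9b start in the promoter table. Rspo3 had 3 regions open in liver endothelium at each age, all inside or at the gene and all shared with other organs. At E12 each of the 3 had a peak in 11 of 11 endothelial libraries.

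Across ages, 15 of the 18 adult regions had a peak in at least 1 P6 liver endothelial library, 11 of them in both. An E12 endothelial peak was present at 13 of the 18, in trunk at 12. Exactly 3 regions were liver-restricted at both ages, at Hgf, Bmp2 and Bmp6. The region counts depended on the peak threshold: with a −log10 q of at least 5 there were 11 adult and 4 P6 regions, and with equal numbers of top peaks 9 and 5.

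**Figure D3:**
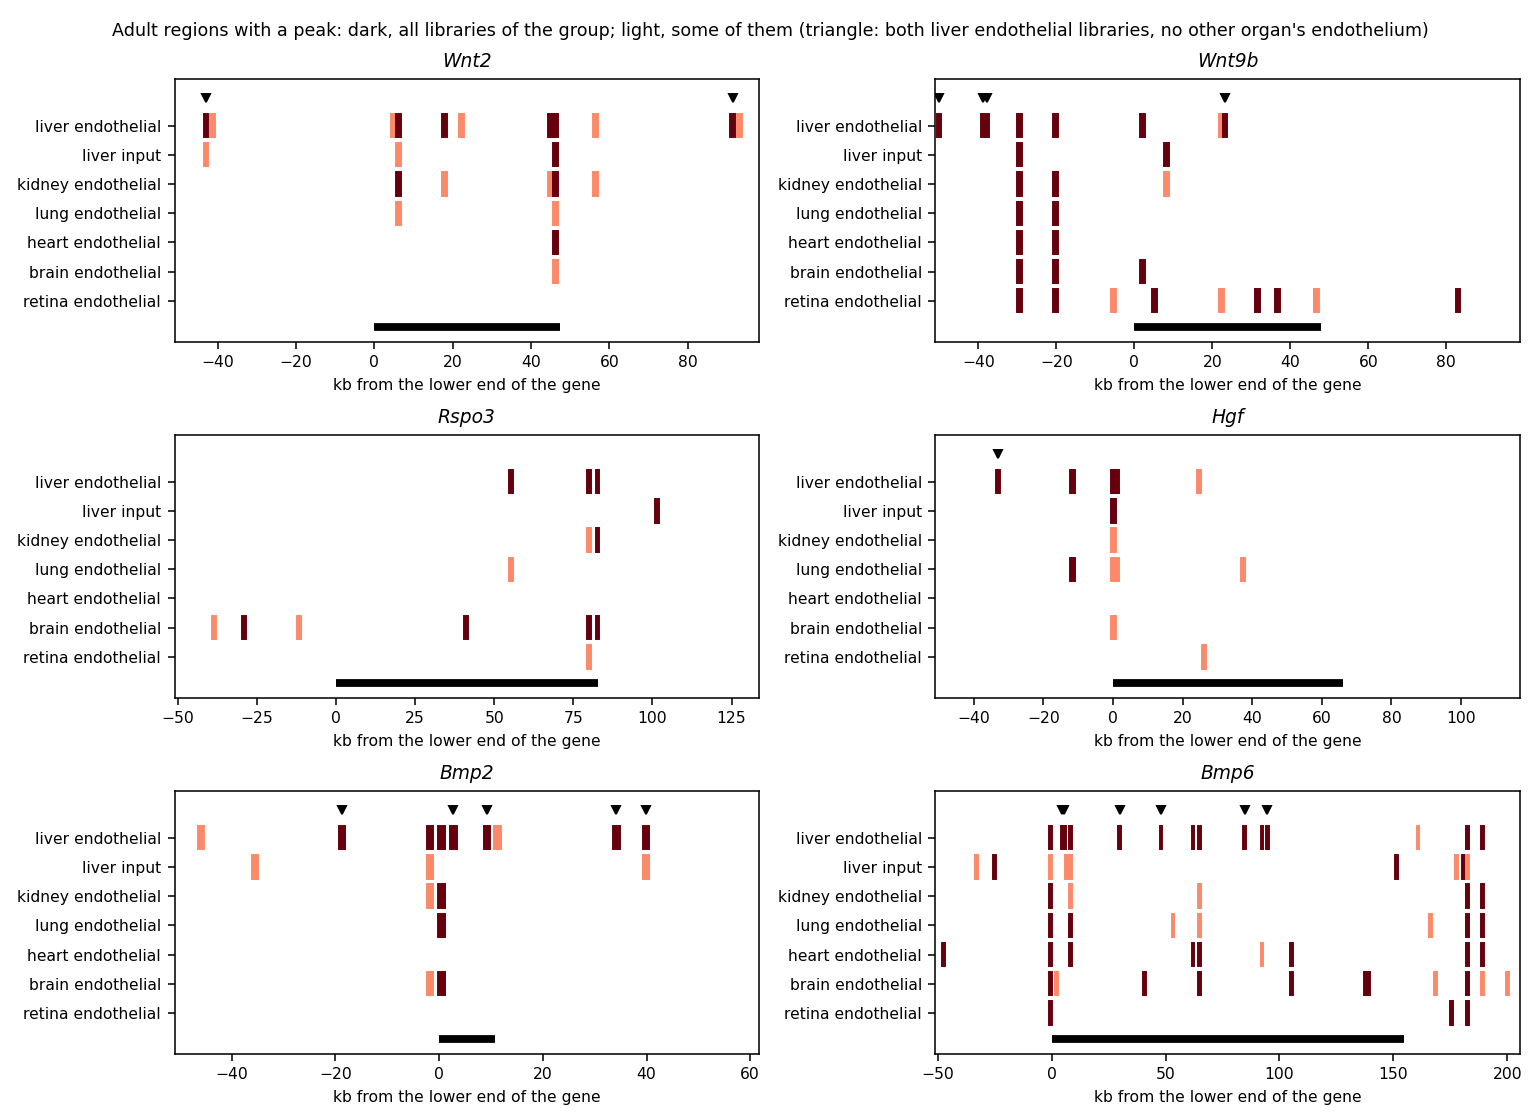
Adult regions with a peak around each gene, by kb from the gene's lower coordinate (horizontal axis); the black bar is the gene, dark marks show a peak in all libraries of a group and light marks in some. Triangles mark the 18 regions with a peak in both liver endothelial libraries and in no endothelial library of another organ: 6 at Bmp6, 5 at Bmp2, 4 at Wnt9b, 2 at Wnt2, 1 at Hgf and none at Rspo3.

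Promoters separated the genes in another way. Of the 6 genes, Wnt2, Wnt9b, Hgf and Bmp6 had a promoter in the RefSeq table (GRCm38.p6, the assembly of mm10). The Wnt2 promoter had a peak in 2 of 2 liver endothelial libraries at adult and 2 of 2 at P6. Kidney endothelium had one in 1 of 2 and 2 of 2, brain in 0 of 2 and 1 of 3, and heart, lung and retina endothelium in none. Liver input had it in 0 of 2 adult and 1 of 2 P6 libraries, and E12 endothelium in 10 of 11. The Hgf promoter was open in all 4 liver endothelial and all 4 liver input libraries and, at P6, in both lung and both kidney libraries, so it was not restricted to liver endothelium. The Bmp6 promoter had no peak in any of the 4 liver endothelial libraries, and that of Wnt9b had one in 1 of 2 at each age.

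The 250 bases before the start of Wnt2 (chr6:18030446-18030695, minus strand) and of Hgf (chr5:16553245-16553494, plus strand) are shown, 5′ to 3′. Every liver endothelial library had a peak overlapping these 2 promoters as listed. A listed promoter also holds bases after the start, so an overlap may lie outside the bases shown. A second listed Hgf start nearby, which also had a peak in all 4, is not shown. Capitals mark matches to the motifs searched.
Wnt2: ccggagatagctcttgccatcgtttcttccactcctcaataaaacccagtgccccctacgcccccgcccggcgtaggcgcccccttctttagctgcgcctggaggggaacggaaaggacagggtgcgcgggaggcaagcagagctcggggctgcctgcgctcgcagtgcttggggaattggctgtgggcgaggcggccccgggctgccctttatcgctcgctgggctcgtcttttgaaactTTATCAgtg
Hgf: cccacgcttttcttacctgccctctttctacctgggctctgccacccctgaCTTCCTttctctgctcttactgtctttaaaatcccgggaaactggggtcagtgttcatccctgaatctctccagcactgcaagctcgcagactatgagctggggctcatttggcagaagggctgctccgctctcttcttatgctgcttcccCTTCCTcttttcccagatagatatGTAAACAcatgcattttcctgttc
Motifs were searched on both strands, and capitals on the opposite strand read as the reverse complement. Wnt2 held 1 GATA motif (AGATAA or TGATAA), as TTATCA 4 to 9 bases before the start; 16.6% of 32851 promoters of the same length held one. Hgf held the ETS motif AGGAAG at 2 places, as CTTCCT 43 to 48 and 194 to 199 bases before the start (29.5% of promoters), and the forkhead motif TGTTTAC once, as GTAAACA 18 to 24 bases before it (3.17%). The MAF motif TGCTGAC (3.81%) matched in Wnt9b, and the AP-1 motif TGANTCA (6.75%) and the TCF/LEF motif CTTTGAT (3.21%) in none of the 5 member promoters searched, which count a second Hgf start. A match describes the letters in this window and is not a measured binding site.

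The pathway partners of these signals were read from lists of receptors, modulators and related ligands. Of 19 Wnt ligands, Wnt2 was the only one higher in adult liver endothelium and 5 were lower, with a median of -0.20, where 8.99% of all genes were called higher and 10.1% lower. In simulated data with no gene lowered, 68 genes were called lower in this comparison, beside 2131 in the measured libraries. The simulated counts held counting error only, without further spread between libraries or effects of read processing. They therefore cannot give the number of false lower calls in the measured libraries. At P6 Wnt2 was again the only one higher and 2 were lower, where 7.30% of all genes were called lower. Of 23 Wnt and R-spondin receptors and modulators 3 were higher at adult and 5 lower: Lgr5, an R-spondin receptor (1.02, limma adjusted p = 0.00916), Fzd4, a Wnt receptor (0.71, adjusted p = 0.0126), and Lrp6, the Wnt co-receptor (0.66, adjusted p = 0.001) were higher. At P6 Lgr5 and Lrp6 were called higher too and 5 were lower. Of 12 genes of the Hgf pathway 3 were higher and 2 lower. The 3 were Hgf itself, Spint2, an inhibitor of the proteases that activate Hgf (0.95, limma adjusted p = 5.28e-05), and Hpn, such a protease (0.68, adjusted p = 0.00494). At P6 Spint2 alone was higher and 2 were lower. Against liver input at adult, 2 of the 19 Wnt ligands were higher, Wnt2 and Wnt2b, and 3 lower. Of the 23 receptors and modulators Fzd6 alone was higher and 6 were lower, so Lgr5, Fzd4 and Lrp6 were not called there. Of the 12 Hgf pathway genes 4 were higher, Spint2 and Hpn among them but not Hgf, and 1 was lower. Beside these counts, 14.3% of all genes were higher and 15.7% lower. At P6 Lgr5 and Lrp6 were not called against input either.

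Beside the same shares of all genes, of 14 BMP ligands 3 were higher in adult liver endothelium, Bmp2, Bmp6 and Bmp10, a ligand of the endothelial receptor Acvrl1 (1.05, limma adjusted p = 0.0159), and 3 were lower. Of 23 BMP receptors, inhibitors and targets 5 were higher and 3 lower. The largest differences among the 5 higher were Bmper, a BMP-binding modulator (1.46, adjusted p = 7.62e-05), Grem1, a BMP antagonist (1.06, adjusted p = 0.00708), and Acvr1, a BMP receptor (1.05, adjusted p = 0.000126). At P6 2 of the ligands, Bmp2 and Bmp10, and 1 of the 23, Grem1, were higher, and 1 ligand and none of the 23 were lower. Of 23 other endothelial signals 4 were higher and 6 lower at adult. The 3 largest of the 4 higher were Esm1 (0.83), Ccn2 (0.70) and Mmp14 (0.40). At P6 1 was higher and 4 were lower, where 8.14% of all genes were called higher and 7.30% lower. Against liver input at adult, Bmp2, Bmp6 and Bmp10 were higher and 4 of the ligands lower. Of the 23 receptors, inhibitors and targets 3 were higher, Bmpr2, Smad1 and Smad7, and 4 lower. Bmper, Grem1 and Acvr1 were not called there. Of the other signals 6 were higher, Esm1 and Ccn2 among them but not Mmp14, and 2 were lower. Beside these counts, 14.3% of all genes were higher and 15.7% lower. At P6 Bmp2, Bmp10 and Grem1 were not called higher than input.

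Brain endothelial barcodes carried little RNA of these genes, and Rspo3 in the youngest embryo was the single case above the background barcodes. From the youngest to the oldest library the endothelial barcodes numbered 5644, 6347, 3786, 4778 and 3154, with median depths of 7158, 10469, 9017, 8468 and 4896 UMIs. Each age is 1 library, so no difference between ages was tested, and intervals are exact Poisson (UMIs) or exact binomial (shares) at 95% and cover counting error only. Barcodes with none of the 6 endothelial genes served as background, 1118, 554, 51, 130 and 176 of them, with median depths of 1769, 6496, 5186, 1247 and 2463 UMIs. Another class's genes (at least 3 from its marker list) were present in 59.1%, 82.7%, 21.7%, 42.4% and 19% of endothelial barcodes, in the same order. Doublets were not removed. The E16.5 matrix came without gene names and was read in the gene order of the other ages, so each E16.5 value rests on that order. The name under which that matrix was deposited appears to give a later embryonic day than its label, and the label is used here. Libraries shared 0 to 50 barcodes in pairs, the most between E12.5 and E16.5.

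Rspo3 had 946 UMIs in E9.5 endothelial barcodes, or 20.7 CPM (UMIs per 1000000 UMIs of the barcodes summed, 19.4 to 22.0), in 11.7% of them. The background barcodes had 11.7 CPM (8.33 to 16.01), and 209 microglia-like barcodes of higher median depth (9830 UMIs) had 1.41 CPM, with a UMI in 1.44% of them. This was the only member and age whose endothelial interval lay above that of the background, where 11.6% of all genes at E9.5 did so. Thinned to 2000 UMIs per barcode, which leaves out 272 shallower endothelial and 607 of the 1118 background barcodes, the share with an Rspo3 UMI was 3.56% (3.08 to 4.09) against 2.54% of the 511 background barcodes left (13 barcodes), and 0 members were then above the background. From E12.5 on the endothelial level was 1.48 CPM (119 UMIs), then 0.188 (8 UMIs), 0.265 (16 UMIs) and in the adult 0.0860 (2 UMIs). Some of these values depended on the filter. At E12.5 the level was 0.69 without barcodes holding another class's genes, and at P8 0.14 with a mitochondrial limit of 5%. In the adult it was 0 with that limit and 0.72 with at least 2 endothelial genes.

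Within the E9.5 endothelium, arterial barcodes had 19.6 Rspo3 CPM (15.9 to 24.0, 691 barcodes) and venous ones 21.2 (17.6 to 25.2, 527 barcodes), with overlapping intervals. The 166 barcodes with both Lyve1 and Stab2, genes of sinusoidal and lymphatic endothelium, had 42.2 (33.0 to 53.1), above both. Mesenchymal-like barcodes, of which there were 78, 160, 13, 55 and 12, had 49.6, 42.3, 32.6, 85.7 and 194 CPM from E9.5 to adult. At E16.5, P8 and adult these rested on 1, 4 and 2 barcodes with a UMI.

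Bmp2 was detected at every age, with 206, 408, 578, 380 and 80 UMIs from E9.5 to adult, which is 4.503, 5.08, 13.6, 6.29 and 3.44 CPM. Its share of endothelial barcodes with a UMI ran from 1.55% at adult to 10.3% at E16.5. The background barcodes stood at 4.20, 8.81, 21.3, 33.2 and 13.8 CPM, and the endothelial interval lay above the background interval at no age. With a mitochondrial limit of 5% the endothelial level was 2.68 at P8 and 2.07 in the adult, and without barcodes holding another class's genes the adult level was 0.77, so the postnatal Bmp2 values depended on the filter. Microglia-like barcodes had 12.6 CPM at E12.5 (10.0 to 15.7, 815 barcodes), 59.6 at E16.5 (56 barcodes) and 142 at P8 (21 barcodes), and adult mural-like barcodes, the contractile cells around vessels, 49.2 (33.2 to 70.3, 122 barcodes).

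Venous endothelial barcodes at E16.5 had 126 Bmp2 UMIs, or 16.5 CPM (13.8 to 19.7) in 804 barcodes, and at P8 83 UMIs, or 5.12 (4.07 to 6.34) in 1245. Arterial barcodes had 0 UMIs at both ages, but with 65 and 97 barcodes a count of 0 allows up to 8.62 and 5.72 CPM. The arterial limit thus lay below the venous interval at E16.5 and inside it at P8, while the venous level was inside the background interval at E16.5 (7.82 to 46.4) and below it at P8 (17.7 to 56.7). At E9.5 and E12.5 arterial barcodes had 3.48 and 3.43 CPM and venous ones 3.07 and 5.22, with overlapping intervals.

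Wnt9b had 4, 8, 12, 52 and 51 UMIs in endothelial barcodes from E9.5 to adult, which is 0.0874, 0.0995, 0.282, 0.860 and 2.19 CPM. In the adult it was seen in 1.33% of endothelial barcodes (0.961 to 1.80), and in 0 of 176 background barcodes, where 3 counts would be a share of 1.70% and the median depth was 2463 UMIs against 4896. Adult venous barcodes had 21 UMIs, or 3.78 CPM (2.34 to 5.78), and 194 arterial ones 0, which allows up to 3.09. With a mitochondrial limit of 5% the adult level was 0.95 and the P8 level 0.43, so these values depended on the filter.

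The other members were close to the limit of detection. Wnt2 had 21 UMIs at E9.5 (0.459 CPM, and 0.174 with a mitochondrial limit of 5%), 8 and 4 in the older embryos and 0 in both postnatal libraries, where 0 allows up to 0.0496 and 0.129 CPM. The E9.5 mesenchymal-like barcodes held 39 Wnt2 UMIs, 69.1 CPM (49.1 to 94.4), and mural-like ones 49.9. Hgf had 30 endothelial UMIs at E9.5 (0.656 CPM) and 1 to 7 at each later age, and 25 in E12.5 microglia-like barcodes (3.85 CPM). Bmp6 had 5, 0, 0, 2 and 11 UMIs, the last being 0.473 CPM in adult endothelium (0.236 to 0.847).

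Few barcodes held more than 1 of the signals. Each signal was seen in a minority of barcodes, so rare pairs do not show that the signals sit in separate cells. Whether pairs met more or less often than by chance was not tested. Rspo3 and Bmp2 were found together in 36 E9.5 endothelial barcodes, of 658 with Rspo3 and 184 with Bmp2, and Wnt9b and Bmp2 in 14 at P8, of 48 and 191. Every other pair met in 5 or fewer barcodes at any age. Set beside the chromatin of the same organ, adult brain endothelial nuclei had 5 and 5 peaks at Rspo3, the most of any adult endothelium, and adult brain input had 9. The adult endothelial barcodes, which came from other material (CD31-enriched cortex cells), held 2 Rspo3 UMIs. For Wnt2, adult brain endothelium had 0 and 1 peaks and 0 UMIs. Bmp6 had 8 and 10 peaks and a UMI in 10 adult endothelial barcodes, and Wnt9b 3 and 3 peaks and 42 barcodes. Bmp2 had 2 and 2 peaks and 49 barcodes, and Hgf 0 or 1 peaks and 1 barcode.

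**Figure D4:**
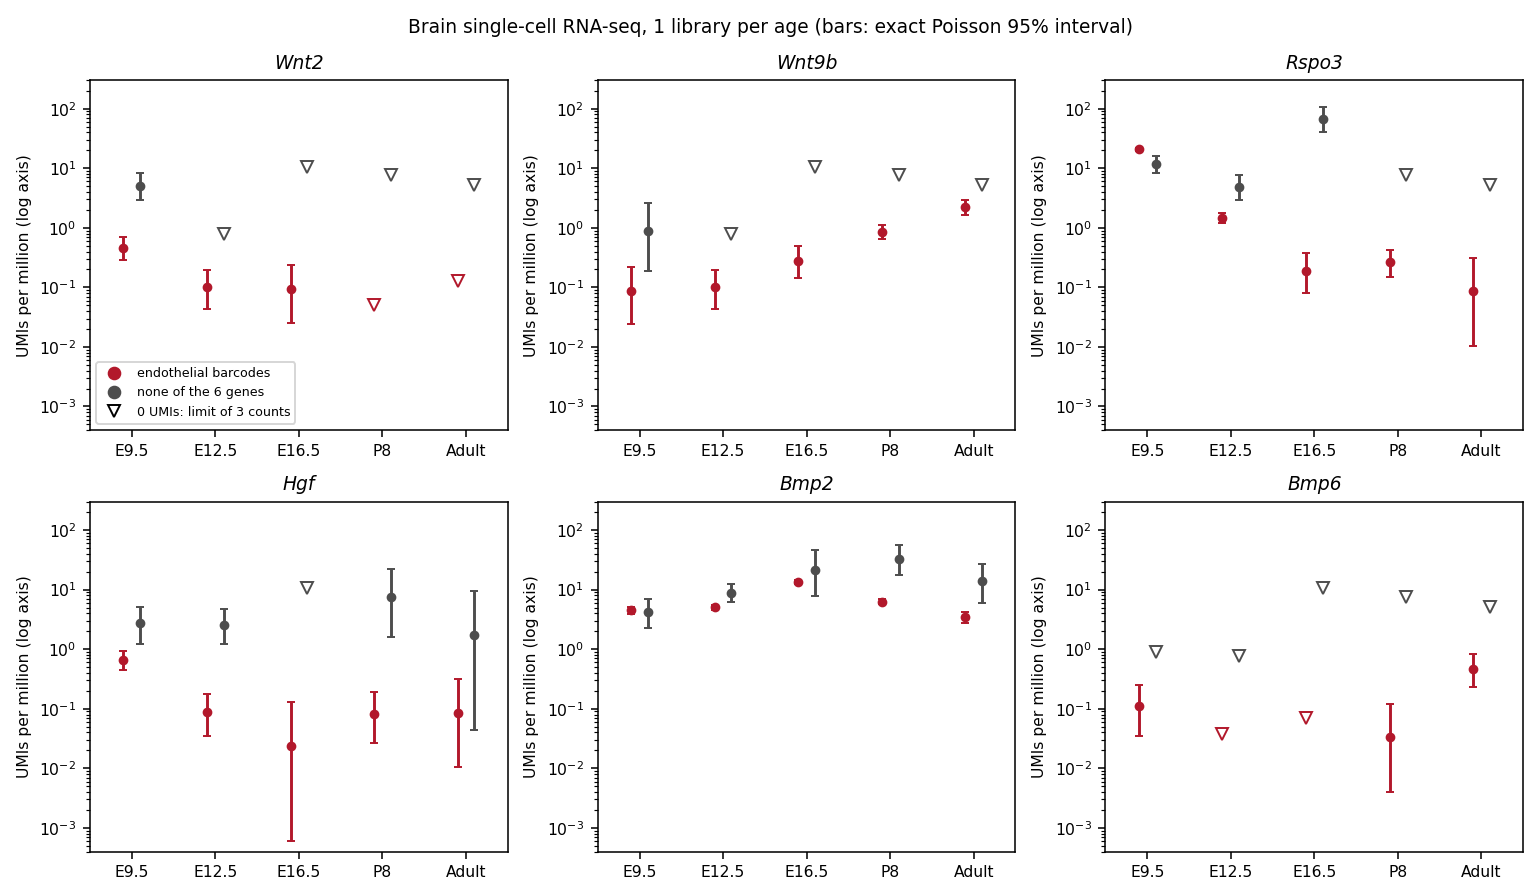
CPM (UMIs per 1000000, log axis) of each gene by age in brain endothelial barcodes and in barcodes with none of the 6 endothelial genes, 1 library per age; bars are exact Poisson 95% intervals and open triangles mark 0 UMIs at the limit of 3 counts. Rspo3 at E9.5, with 20.7 against 11.7 CPM, is the single case where the endothelial interval lies above the other.

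Receptors and targets of these pathways were read in the same brain endothelial barcodes. Of 22 BMP receptors, inhibitors and targets measured, 9, 12, 8, 7 and 7 were above the background from E9.5 to adult, beside 11.6%, 32.0%, 10.7%, 9.48% and 10.1% of all genes. Bmpr2, a BMP receptor, Acvrl1 and Eng, its endothelial partners, and the target genes Id1 and Id3 were among them at every age. Of 23 Wnt and R-spondin receptors and modulators 3, 9, 3, 3 and 5 were, with Fzd4 at all 5 ages (32.6, 33.4, 42.4, 67.3 and 234 CPM), and those counts stand beside the same shares of all genes. Met, the Hgf receptor, was above the background at no age, with 0.129 to 1.695 CPM. Of the 12 liver sinusoidal markers 5 were above the background at E9.5, 2 at E12.5 and 0 later, among them Stab2 with 12.7 and 12.1 CPM at the first 2 ages.

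**Figure D5:**
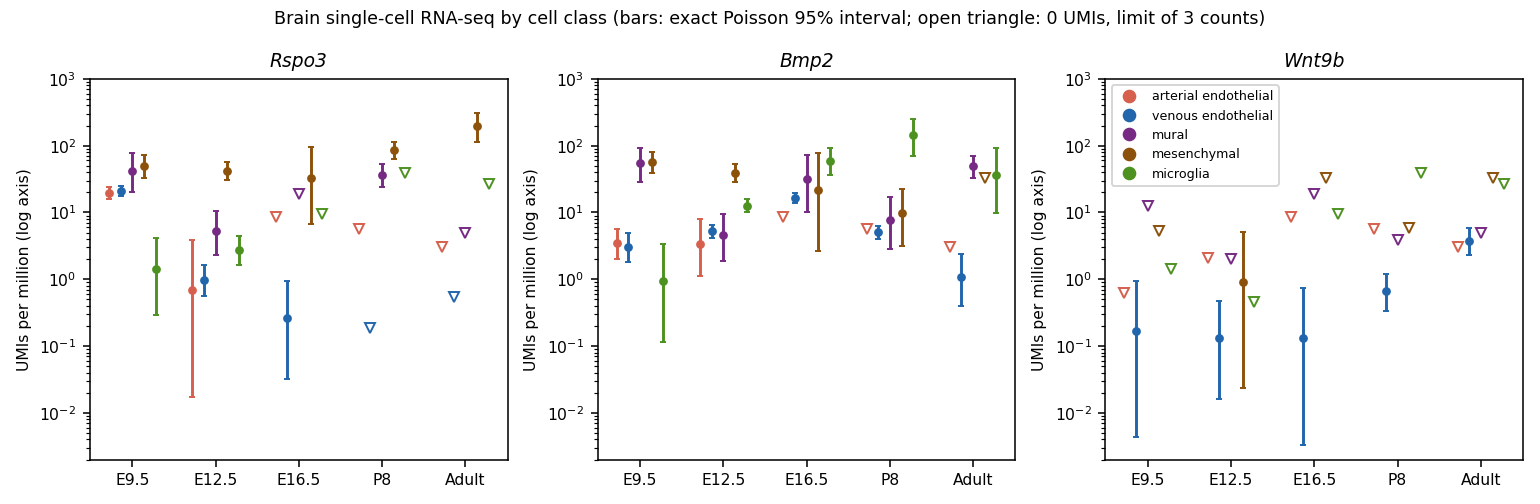
CPM (log axis) of Rspo3, Bmp2 and Wnt9b by age in arterial and venous endothelial barcodes and in mural-like, mesenchymal-like and microglia-like barcodes; bars are exact Poisson 95% intervals and open triangles mark 0 UMIs at the limit of 3 counts. Mesenchymal-like barcodes are highest for Rspo3 (49.6 CPM at E9.5, 194 at adult), though from E16.5 on these points rest on very few barcodes with a UMI. At E16.5 Bmp2 stands at 16.5 in venous barcodes, inside the interval of the background barcodes (7.82 to 46.4), and at 0 UMIs in the 65 arterial ones.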

How the data were processed

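The authors deposited 1 MACS2 2.1.2 peak list per library, called per the file headers without a control library, in broad mode, with shift -100, extension 200, a q of 0.05 and a broad q of 0.1. The lists give coverage (signal), fold enrichment (ratio) and −log10 of p and q, as deposited. Build mm10 and alignment with Bowtie2, SAMtools 1.13 and Picard are per the submitters' processing notes. Single-cell values are the deposited raw UMI counts from Cell Ranger (4.0.0 per the file headers at 3 ages, not given at E12.5 and E16.5). The E16.5 matrix came without a gene table, so its 27998 rows were read in the order of the other tables; all 10 general endothelial markers were detected that way. Gene names were deposited in the gene tables. The 54 bulk RNA-seq libraries, liver endothelium and liver input among them, were not used: their values are per Ensembl transcript, and no table at hand paired transcripts with genes.

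Peaks overlapping a gene (GRCm38.p6) or within 50 kb were counted, and log2(peaks + 1) was fitted with limma 3.58.1 (R 4.3.3, eBayes with trend) over 21173 genes with a peak in at least 2 libraries. All 66 libraries entered, with 1 mean per group and log2 list length as covariate; a call is a Benjamini-Hochberg adjusted p under 0.05. On simulated data with 200 genes raised 4-fold, liver against other organs recovered 71.5% (adult) and 73% (P6), and 1.38% and 5.2% of higher calls were false; against input 41.5% and 31% were recovered, with 19.4% and 7.46% false. No gene was lowered there, and the genes called lower, all falsely, numbered 68 and 26 against other organs and 34 and 5 against input. Simulated counts were Poisson around each gene's mean scaled by list length, without further spread between libraries or effects of organ and read processing. False shares in the measured libraries can therefore differ. At 2-fold 3.5% were recovered at adult. Regions are peaks of 1 age merged where they overlap, over Python 3.11.15. Depth is the number of tags kept, 10.1 to 59.1 M (mega); UMI intervals cover counting error only, and a count of 0 allows 3 counts. A cell class needed at least 3 genes of its marker list and under 3 of the 6 endothelial genes; arterial and venous barcodes needed at least 2 of their own and none of the other's. For peaks, the text names the 6 members, the 3 genes most like each, and up to 3 genes per list with the largest change among those called higher. Genes called lower were counted and not named. The members and lists were chosen with earlier results of these data known. Alternatives changed the window, peak threshold, covariate, scale, filter and libraries.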

Additional observations from a re-analysis of the deposited data

Results flagged for a closer look

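Bmp6 in the third E12 heart endothelial library had 4 peaks, against 19, 19 and 21 in the other 3 libraries of its group. It stood far from the others by Dixon's test at 95%, which by chance marks about 1 in 20 groups, and 12 groups of 4 were tested. Its peak list was the shortest of the group, with 39096 peaks, and the same library also had the fewest peaks of its group at Wnt2, Wnt9b, Rspo3, Hgf and Bmp2. Without it the E12 comparisons still called no member.

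Rspo3 moved in opposite directions at the 2 postnatal ages before adjustment for list length. The difference of liver from the mean of the other organs in log2(peaks + 1) was 1.03 at adult and -0.16 at P6. With the covariate, the test of the difference between the ages gave 0.61 (limma adjusted p = 0.623). Adult liver had 3 and 3 Rspo3 peaks, as did P6 liver, while the other organs' median was 1 at adult and 3 at P6.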

How the results depend on the processing

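The number of members called (4 and 2 for liver against other organs at adult and P6, 3 and 1 against input, 0 between ages, for the difference and at E12) depended on several settings. Without the covariate P6 liver called 0, adult against input 1 and P6 against input 0; equal numbers of top peaks gave 5 and 3 against input, and 1 each between ages and for the difference, Bmp6. Against kidney alone adult liver called 2. Against input, covered length gave 5 and 3, only the groups compared 0 and 0, and at P6 a −log10 q of at least 5 gave 3, peaks nearest to the gene 0, no filter 0, the replicate block 0 and the square root scale (chosen after seeing the data) 2. Leaving out 1 library gave 2 to 5 and 2 to 2 against other organs, and 1 to 3 and 0 to 1 against input. Liver-restricted regions numbered 18 at adult (11 with a −log10 q of at least 5, 9 with equal top peaks, 18 to 23 without 1 library) and 7 at P6 (4 with a −log10 q of at least 5, 11 where a peak had to cover 50% of a region, 7 to 12 without 1 library). By their definition, leaving out 1 library can only keep or raise the number of these regions. Thinned to 2000 UMIs, 0 members were above the background in brain endothelium. The cause was not tested.

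Values that turned sign were all of members not called. For P6 liver against other organs these were Rspo3 without the covariate (-0.15), with equal top peaks (-0.64), with −log10 q of at least 5 (-0.0853), against kidney (-0.28) and without the second P6 liver library (-0.15), and with equal top peaks Wnt9b (-0.11) and Bmp6 (-0.28). For P6 liver against input they were Bmp6 with equal top peaks (-0.50), with −log10 q of at least 5 (-0.38) and without liver input 3 (-0.0211, against 0.324 without liver input 4), and Hgf without liver input 3 (-0.14, against 1.74 without liver input 4). Between ages they were Wnt2 (-0.21) and Wnt9b (-0.0498) without the covariate and Bmp2 with equal top peaks (-0.16); for the difference, Wnt2 with −log10 q of at least 5 (-0.0856), Wnt9b by covered length (-0.00279) and Bmp2 with equal top peaks (-0.26). At E12 Wnt2 turned to 0.0923 with 10 kb, 0.0052 with nearest peaks, 0.00309 by covered length, 0.0194 with pseudocount 0.5 and 0.000934 without lists under 30000 peaks, and ran from -0.0657 to 0.0584 without 1 library; Wnt9b turned to 0.00395 with equal top peaks, and with 10 kb Hgf to 0.33, Bmp2 to 0.0524 and Bmp6 to 0.10. Of the other peak values that did not come from leaving out 1 library, 482 kept direction and call, 27 gained and 26 lost a call; with 1 library left out these were 433, 1 and 9.

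Pairing by replicate number was examined only between organs within a fraction. Deviations of same-numbered endothelial libraries of different organs correlated at a mean of -0.01 at adult, 0.04 at P6 and -0.02 at E12. These means cannot show that libraries were unpaired. Pairing of an endothelial library with the same-numbered input of its organ was not tested. With the replicate block the numbers called were 4, 2, 3, 0, 0, 0 and 0, Wnt9b at P6 against input being lost (adjusted p = 0.06535).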

Other observations

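Among Wnt ligands in brain endothelium, Wnt5a, which mostly acts without beta-catenin, was the only one above the background, at P8 and adult. It had 118, 195, 302, 1687 and 1554 UMIs from E9.5 to adult, or 2.58, 2.43, 7.11, 27.9 and 66.8 CPM, against 10.2 and 8.63 in background barcodes at the last 2 ages. No difference between ages was tested, with 1 library each.

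The protein-coding genes whose adjusted peak counts followed each member most closely over the 37 endothelial libraries were, by Pearson r, Cyb5a (0.885), Tlr7 (0.854) and Fat4 (0.840) for Wnt2, and Cd84 (0.890), Slamf1 (0.869) and Tnip3 (0.851) for Bmp2. For Hgf they were Slc2a2, the glucose transporter of hepatocytes (0.769), Mysm1 (0.760) and Gm10323 (0.756), and for Bmp6 Nfia (0.823), Med4 (0.810) and Mthfd1l (0.790). For Wnt9b they were 1110065P20Rik and Yrdc (0.813 each) and Haus6 (0.811), and for Rspo3 Tiam2 (0.795), Slc4a4 (0.776) and Gm39147 (0.770). These values describe likeness across libraries that share organs and read processing, and the genes were the closest of all those tested.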
